A study of Mus musculus with 4 samples.

Results

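The cells described here were liver T and B lymphocytes in which mitochondrial transcripts made up an unusually large share of the RNA. They were chosen by 2 readouts of each cell. The 13 protein-coding genes of the mitochondrial genome had to account for more than 10% and at most 40% of its unique molecular identifiers (UMIs, each counting 1 captured RNA molecule). The cell also had to hold at least 1 UMI of Cd3d, Cd3e or Cd3g, chains of the T cell receptor complex, or at least 3 UMIs of Cd79a, Cd79b and Ms4a1, which mark B cells. By this rule 584 of the 9300 cells in the 4 libraries were members, and 415 of them were T cells, 157 were B cells and 12 met both lineage criteria. The same rule with a mitochondrial share of 10% or less gave 5390 lymphocytes, which served as the reference within each library, and a further 12 lymphocytes, all T cells, lay above 40%. The member nearest the lower bound had a share of 10.06% and that nearest the upper bound 39.5%, while the nearest cells outside had 10.0% and 47.9%. High and low are used below for lymphocytes above and at or below the 10% bound.

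The mitochondrial genome is transcribed inside the organelle and encodes, besides its own ribosomal and transfer RNAs, only subunits of the respiratory chain and ATP synthase, whereas the other subunits of these complexes, and all mitochondrial ribosomal and import proteins, come from nuclear genes whose mRNAs are translated in the cytoplasm. Its transcripts are therefore enclosed by membranes that cytoplasmic mRNAs are not. Another class of RNA, the nuclear-retained long noncoding RNAs such as Malat1, Neat1, Xist and Kcnq1ot1, stays in the nucleus after transcription. In single-cell work the mitochondrial share is mainly used as a quality filter, so that cells of this kind are commonly removed before cell types are compared.

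Liver mononuclear cells came from C57BL/6 mice aged 8 to 10 weeks, with 1 library for each of 4 conditions. Naïve mice had received no concanavalin A (ConA), a plant lectin that activates T cells and causes an immune hepatitis. By the study's methods ConA was injected 24 hours before the cells were taken and was followed by corn oil as vehicle (ConA+Veh) or by the dioxin TCDD (ConA+TCDD). The last library is labelled ConA with FICZ (ConA+FICZ), a tryptophan photoproduct that like TCDD is a ligand of the aryl hydrocarbon receptor, and the timing of its treatment is not given in the sources used here. Livers were dissociated with enzymes and mononuclear cells enriched on a Percoll gradient before 5′ single-cell libraries were made. How many mice gave each library is not stated in the labels, so that no test between conditions was possible, and intervals around values of 1 library cover counting error only. Values of the 4 libraries are given throughout in the order Naïve, then ConA+Veh, ConA+TCDD and, last, ConA+FICZ. The libraries held 2086, 2779, 1880 and 2555 cells and 5952445, 19252211, 12077209 and 16017797 UMIs, with medians of 2161, 3984, 3761.5 and 3147 UMIs per cell. Library pairs shared between 4 and 15 cell barcodes, 45 in all, and 7 of these belonged to high lymphocytes.

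High cells made up 4.12% (3.20 to 5.2%, exact 95% binomial interval) of the lymphocytes in Naïve, 15.2% (13.6 to 16.9%) in ConA+Veh, 12.3% (10.4 to 14.4%) in ConA+TCDD and 7.25% (5.95 to 8.72%) in ConA+FICZ. ConA+Veh and ConA+TCDD thus lay above the other libraries, with intervals that overlapped each other and none of the rest. Among T cells the share was 7.31% (40 of 547), 20.5% (204 of 996), 13.4% (102 of 764) and 11% (69 of 629). Among B cells it was 2.46% (26 of 1059), 9.28% (66 of 711), 10.0% (32 of 320) and 4.45% (33 of 741). T cells had the larger share in 4 of 4 libraries at this bound. This is a description, since the share follows from the rule and 3 UMIs of B cell genes are harder to reach in a shallow cell than 1 of the Cd3 genes. With a lower bound of 5% B cells had the larger share in ConA+FICZ, 24.4% against 23.1%, and with 15% in ConA+TCDD, 9.69% against 9.55%. The order of the libraries also depended on the bound. With a lower bound of 5% in place of 10%, Naïve had the largest share, 39.1%, against 21.1% in ConA+Veh, 18.5% in ConA+TCDD and 23.6% in ConA+FICZ. Of the cells that met no lymphocyte criterion, 13.1%, 11.9%, 11.9% and 8.47% fell in the same range of mitochondrial share, 361 cells in all.

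**Figure D1:**
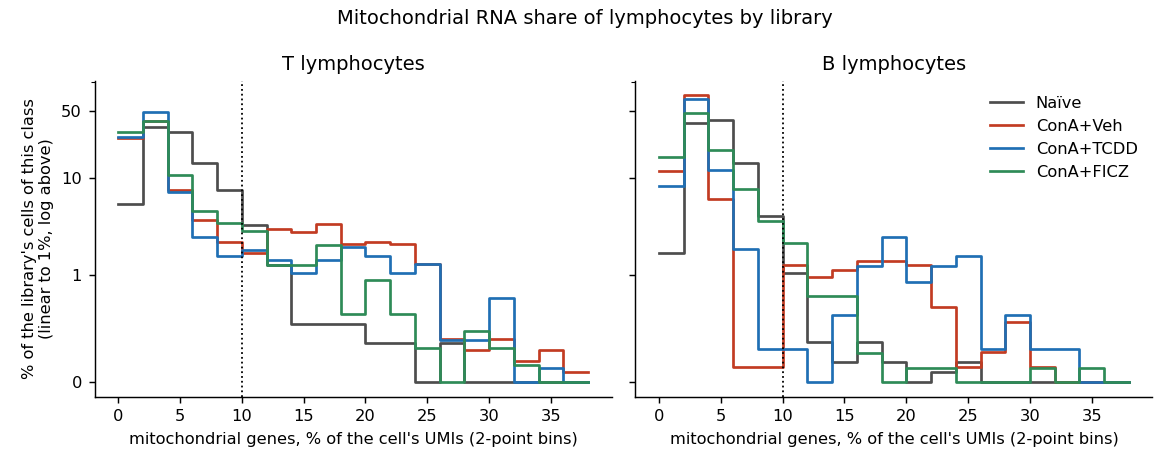
Percentage of T and of B lymphocytes of each library (vertical axis, linear up to 1% and logarithmic above) by mitochondrial share of the cell's UMIs (horizontal axis, percent), with the bound at 10% marked. In Naïve the shares thin out steadily, and 2.46% of B cells lie above the bound. In ConA+Veh and ConA+TCDD the B cells form a second, separate mode above 10%, with 1 cell between 8 and 10% and 10 between 18 and 20% in ConA+Veh.

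The larger share went with fewer nuclear-encoded transcripts and with more mitochondrial ones. High T cells had a median of 1175, 2088, 1786 and 1763 non-mitochondrial UMIs, against 2614, 8382.5, 6325 and 8622 in low T cells. High B cells had 1227.5, 858, 924 and 1049 against 2050, 4599, 4223 and 3934.5. The ratio of high to low medians was 0.45, 0.25, 0.28 and 0.20 in T cells and 0.60, 0.19, 0.22 and 0.27 in B cells, so that in the ConA libraries a high cell held at most 0.28 of the non-mitochondrial UMIs of a low one. The median count of mitochondrial UMIs, in contrast, was 1.60, 2.10, 2.48 and 1.30 times as high in high as in low T cells, and 2.14, 1.58, 1.91 and 1.27 times in B cells. Both quantities enter the rule and are given as a description. That a cell held fewer molecules and that fewer of its molecules were captured cannot be told apart in these counts. Because depth differed, numbers of genes were compared after each cell was thinned at random to 500 non-mitochondrial UMIs. At this equal depth a high T cell showed a median of 353, 420, 422 and 357 genes and a low one 329, 330, 319 and 328, and B cells showed 356, 401, 410.5 and 328 against 323, 305, 308 and 303. High cells therefore had more different genes among the same number of molecules in each library and class, with the largest gap in ConA+Veh and ConA+TCDD.

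The make-up of the mitochondrial RNA itself differed little. Apart from mt-Nd6, the share of each of the 13 mitochondrial genes in all mitochondrial UMIs differed between high and low cells by a mean log2 ratio over the 4 libraries of -0.16 (mt-Nd5) to 0.13 (mt-Atp8) in T cells and of -0.18 (mt-Nd4) to 0.069 (mt-Atp8) in B cells. mt-Co1, a catalytic subunit of cytochrome oxidase, gave 17.6% of the mitochondrial UMIs in high T cells and 18.2% in low ones, averaged over libraries, and was lower in 4 of 4. mt-Nd6, the protein gene transcribed from the other strand, had a mean log2 ratio of -0.35 ± 0.50 (SD, n = 4) in T and -0.68 ± 1.25 in B cells, and gave 0.102% of these UMIs in high T and 0.101% in high B cells.

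Kcnq1ot1 and Gm26917 had been put forward as marking these cells with the data in view, so their values are described without a test. Levels are UMIs per 1000000 non-mitochondrial UMIs (CPM), summed over the cells of a class in a library. Kcnq1ot1 is a long nuclear antisense RNA made from the paternal copy of the imprinted Kcnq1 locus (chr7:143203458-143296549, minus strand, mm10). In high T cells it reached 155, 905, 777 and 439 CPM, and in low T cells 41.1, 43.6, 45.4 and 34.3 CPM. The high and low ranges did not overlap, and the Naïve library had the smallest gap. The log2 fold change over the 4 libraries was 2.87 ± 0.31 (SE) and rested on 678 UMIs in 209 high cells and 980 UMIs in 593 low cells. High B cells had 90.2, 178, 418 and 384 CPM against 25.8, 26.4, 26.5 and 27.8 CPM, a log2 difference of 2.31 ± 0.38 (SE) that rested on 47 UMIs in 34 high cells.

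Gm26917 is a long noncoding gene on chromosome 17 (chr17:39843013-39846341, plus strand) beside Gm42418 (chr17:39846958-39848788), in a stretch that resembles pre-ribosomal RNA, so reads assigned to either may come from ribosomal RNA precursors. It had 1066, 5529, 4984 and 4167 CPM in high T cells and 328, 239, 221 and 207 CPM in low ones, again without overlap. High B cells had 872, 1007, 2138 and 1127 CPM and low B cells 140.5, 110.4, 133 and 91.0 CPM. The log2 fold change was 3.03 ± 0.48 (SE) in T and 2.47 ± 0.36 (SE) in B cells. Gm42418 had a smaller ratio of high to low cells. It stood at 35328, 11578, 17174 and 28676 CPM in high T cells against 19185, 5965, 8892 and 5688 CPM in low ones, so that high was above low in each library, and its fitted difference of 0.46 ± 0.65 (SE) after scaling did not pass the test described below, but was 1.29 without scaling.

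Neither marker was a sharp label of single cells. In T cells thinned to 500 UMIs, Kcnq1ot1 was seen in 2.5%, 29.6%, 29.3% and 11.9% of high cells and in 3.16%, 2.42%, 2.58% and 1.8% of low cells, so that the Naïve library showed no excess at this depth, where 1 of its 40 high T cells had a UMI. Without thinning these shares were 15%, 60.3%, 57.8% and 30.4% against 11.2%, 26.9%, 26.9% and 26.4%. Gm26917 was seen in 27.5%, 71.4%, 73.7% and 49.3% of thinned high T cells and in 14.99%, 12.2%, 13.9% and 12.4% of low ones. Both stood higher in each step of the mitochondrial share above 5%, in T and B cells of each library, although the top bin held as few as 3 B cells (Naïve). In ConA+TCDD T cells Kcnq1ot1 stood at 41.9, 44.7, 127, 681 and 895 CPM in cells with a share of 0 to 2.5, 2.5 to 5, 5 to 10, 10 to 20 and 20 to 40%. Gm26917 stood at 166, 279, 847, 3477 and 6812 CPM in the same bins, so that cells between 5 and 10%, which count as low, already stood between the extremes.

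**Figure D2:**
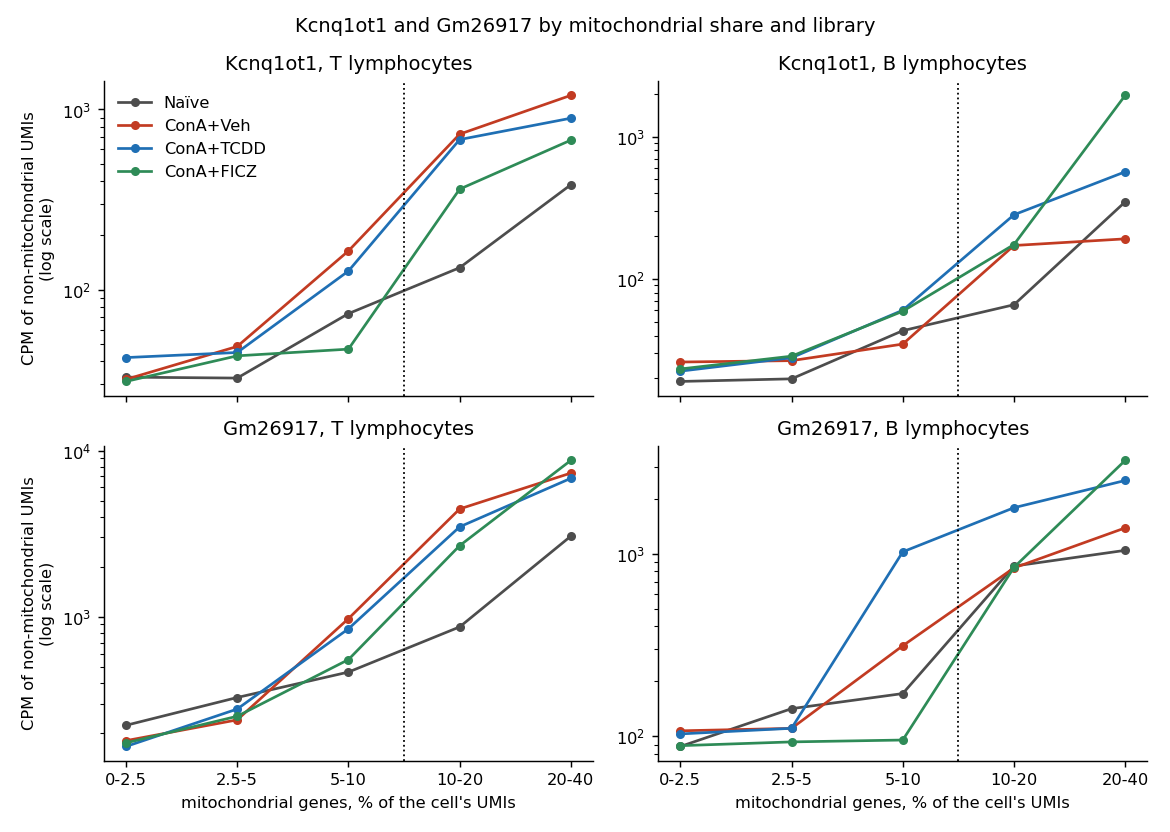
Level of Kcnq1ot1 (top) and Gm26917 (bottom; vertical axis, CPM of non-mitochondrial UMIs, log scale) in bins of mitochondrial share (horizontal axis, percent of UMIs), one line per library, T and B cells apart, with a dotted line at the 10% bound. In ConA+TCDD T cells Kcnq1ot1 goes from 41.9 to 895 CPM, and the bin of 5 to 10%, just below the bound, is already at 127 CPM.

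The high cells were not uniform. Cytosolic ribosomal protein mRNAs, the most abundant short cytoplasmic messages of a lymphocyte, made up a median of 21.2, 5.66, 5.33 and 24.3% of the non-mitochondrial UMIs of a high T cell, and 33.5, 34.7, 38.3 and 36.0% of a low one. In high B cells the medians were 22.1, 7.46, 5.93 and 32.7%, and in low B cells 32.0, 38.8, 39.0 and 40.8%. In ConA+Veh and ConA+TCDD the cells with a share under 15% were 184 of 204 and 90 of 102 high T cells, and 62 of 66 and 30 of 32 high B cells. In Naïve they were 13 of 40 T and 4 of 26 B cells, and in ConA+FICZ 27 of 69 T and 10 of 33 B cells. The 15% division was set after the distribution had been seen and names a range, not a cell type: 13, 7, 5 and 9 high T cells lay between 15 and 25%. Low cells under 15% amounted to 7.10, 7.40, 2.42 and 3.59% of T and at most 0.620% of B cells.

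The mitochondrial share itself moved with the library and with the ribosomal share. Its median was 12.3, 17.6, 18.8 and 16.7% in high T cells and 13.3, 17.8, 20.1 and 12.3% in high B cells, and in T cells under 15% ribosomal share it was 16.3, 18.3, 19.5 and 17.3%, against 11.3, 14.04, 11.3 and 15.03% at 15% or more. Within the single bin of 10 to 20%, ribosomal protein mRNAs summed to 258883, 106549, 156635 and 264286 CPM in T cells, and they were lower in the bin of 20 to 40% in each library, at 90006, 51589, 48156 and 132472 CPM. High T cells with a ribosomal share under 15% had Kcnq1ot1 at 177, 999, 898 and 1017 CPM and those at 15% or more at 149, 264, 320 and 114 CPM. For Gm26917 the values were 3721, 6093, 5784 and 8432 CPM against 427, 1685, 1942 and 1774 CPM. Even the second range lay above the low T cells of its own library for both RNAs. Genes seen at 500 UMIs numbered 386, 422, 424 and 418.5 in the first range and 344, 330, 333 and 339 in the second.

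**Figure D3:**
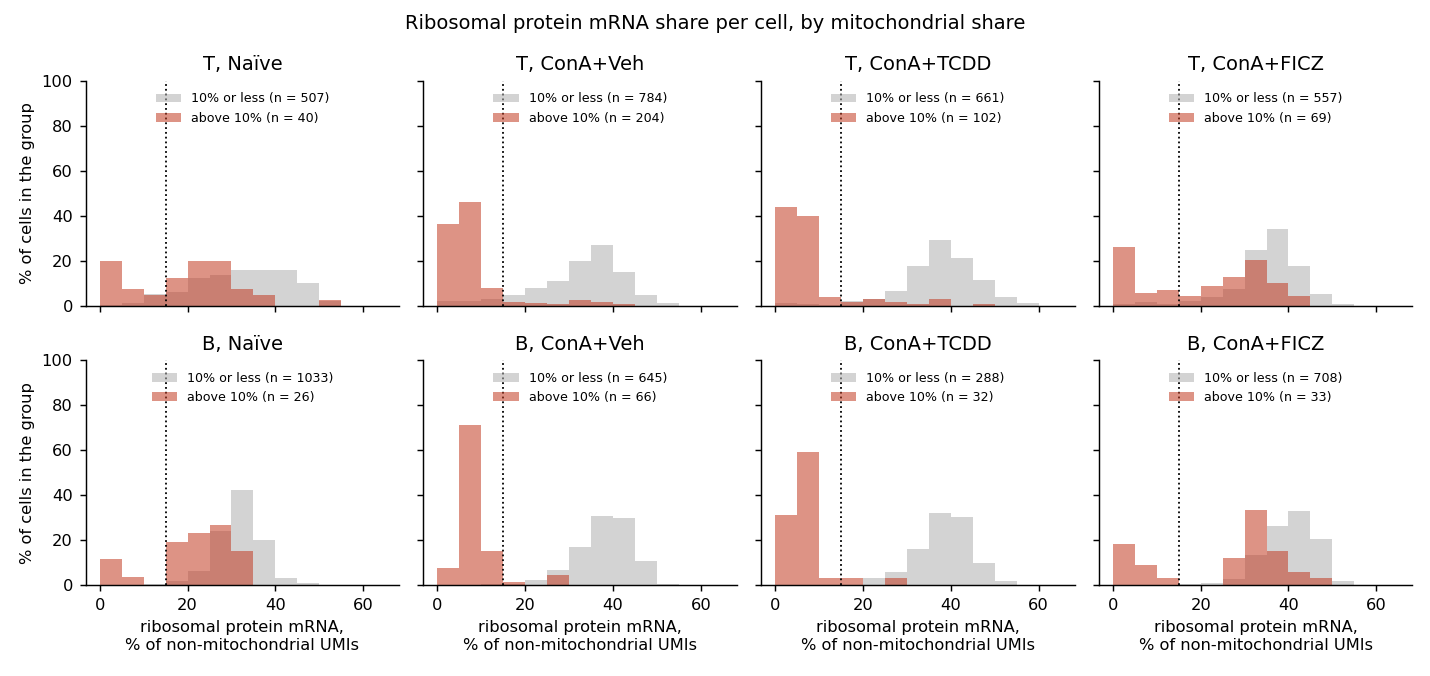
Distribution of the share of cytosolic ribosomal protein genes in the non-mitochondrial UMIs of a cell (horizontal axis, percent) for high and low lymphocytes of each library (vertical axis, percent of cells), with a dotted line at 15%. High cells of ConA+Veh and ConA+TCDD gather near 5%, whereas those of Naïve and ConA+FICZ spread over both ranges.

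To ask which nuclear-encoded genes differed, UMIs were summed over high and over low cells of each library, and edgeR's quasi-likelihood test compared the 4 pairs with library as a block, after the mitochondrial genes had been removed. Genes with a Benjamini-Hochberg adjusted p below 0.05 over all genes tested are called higher or lower. The libraries differ in condition as well, so the spread between them includes that of the treatments. In T cells 2172 of 7998 genes were higher (27.2%) and 2344 were lower (29.3%) in high cells. In B cells, which had fewer high cells, 630 of 7039 genes were higher (8.95%) and 1413 were lower (20.1%). These counts rested on ConA+Veh and ConA+TCDD more than on the other libraries. Without ConA+Veh 112 genes were higher and 735 lower in B cells and 1247 higher in T cells, and without ConA+TCDD 126, 800 and 1284. With so many genes moving, the split depended on scaling. The fold changes given here are scaled by TMM, which sets the bulk of genes near 0 (median log2 fold change 0.02 in T and -0.22 in B cells), and without scaling beyond the total the medians were 0.90 and 0.71, a shift of 0.89 and 0.93. The called genes were then 4002 higher (50%) and 925 lower (11.6%) in T, and 1848 (26.3%) and 391 (5.55%) in B cells. A change is therefore relative to the median gene, and since summed CPM are unscaled, a gene can be called lower although its CPM hardly differ. The CPM of high and low cells did not overlap between the 4 libraries, with high above low, for 28.8% of the genes tested in T and 17.3% in B cells, and with high below low for 8.65% and 6.24%.

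Ribosomal protein genes were lower. In T cells 77 of 80 tested were lower and none higher (Rpl36, Rps15 and Rpsa did not pass), with a median log2 fold change of -2.11, and in B cells 80 of 80 were lower, with a median of -2.14. Of all genes 29.3% were lower in T and 20.1% in B cells. Without scaling the medians were -1.26 and -1.22, and 63 and 54 of 80 were lower, beside 11.6% and 5.55% of all genes. Rpl13, a protein of the large subunit, had 6106, 2343, 2750 and 7603 CPM in high T cells against 7861, 8760, 9201 and 8464 CPM in low ones. High was below low in each library, and the gap was wide only in ConA+Veh and ConA+TCDD.

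The nuclear-encoded subunits of oxidative phosphorylation, the partners of the mitochondrially encoded ones, were lower as well. In T cells 75 of 78 were lower and none higher (median -2.18, and -1.30 without scaling), and in B cells 74 of 78 were lower and none higher (median -2.05, and -1.06 without scaling). Without scaling 57 were lower and 1 higher in T, and 41 lower and none higher in B cells. Of all genes 29.3% in T and 20.1% in B cells were lower with scaling, and 11.6% and 5.55% without. Cox8a, a subunit of cytochrome oxidase, had 361, 321, 275 and 239 CPM in high T cells and 820, 1265, 1191 and 1271 CPM in low ones. Atp5g2, of the ATP synthase rotor, had 344, 233, 284 and 179 CPM against 734, 1161, 1211 and 1277 CPM. The 2 groups did not overlap for either gene, and the log2 fold changes were -2.77 ± 0.38 and -2.95 ± 0.40 (SE). The mitochondrially encoded subunits of the same complexes were high by the rule and are not compared.

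Genes of mitochondrial quality control and housekeeping were lower in 15 and higher in 2 of 25 tested in T cells (median -1.30), and lower in 13 and higher in 1 of 24 in B cells (median -1.48). In T cells 29.3% of all genes were lower and in B cells 20.1%. Without scaling 10 were lower and 6 higher in T cells (median -0.47), and 3 lower and 2 higher in B cells (median -0.52). Of all genes 11.6% and 5.55% were then lower. Dnm1l, the dynamin of mitochondrial fission, was higher in both classes, by 1.14 ± 0.24 and 1.35 ± 0.48 (SE), and the matrix protease Lonp1 in T cells, by 0.68 ± 0.23. Those lower included Hspe1, the mitochondrial co-chaperonin (log2 fold change -3.08 ± 0.37, SE, in T), Slc25a5, an ADP/ATP carrier (-2.58 ± 0.35), and Vdac1, a pore of the outer membrane (-1.95 ± 0.27). The mitofusin genes Mfn1 and Mfn2 and the fusion gene Opa1, which have low levels, did not pass the test in T cells, at 0.05 ± 0.50, -0.59 ± 0.45 and 0.19 ± 0.30.

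Actin and thymosin genes, which encode the abundant cytoskeletal proteins of lymphocytes, were lower in 15 of 19 in T and 16 of 19 in B cells, with medians of -1.87 in both and none higher, against 29.3% and 20.1% of all genes that were lower. Without scaling 10 were lower and 3 higher in T cells (median -1.05), and 9 lower and 3 higher in B cells (median -0.94). Of all genes 11.6% and 5.55% were then lower. Tmsb4x, which binds actin monomers, had 4833, 1199, 1071 and 1814 CPM in high and 7258, 6167, 4585 and 5137 CPM in low T cells. The ranges met only through the Naïve library, whose high cells exceeded the low cells of ConA+TCDD.

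The listed nuclear long noncoding RNAs moved the other way. Of the 8 tested besides Kcnq1ot1 and Gm26917, 5 were higher and none lower in T cells (median 1.42), and 4 were higher and none lower in B cells (median 0.50), against 27.2% and 8.95% of all genes that were higher. Without scaling 8 were higher in T and 4 in B cells, beside 50% and 26.3% of all genes. Malat1, the most abundant nuclear-retained RNA of most cells, reached 22703, 16825, 15463 and 10560 CPM in high T cells against 7137, 1837, 1671 and 1212 CPM in low ones. High B cells had 24995, 28506, 23857 and 23315 CPM against 6991, 2725, 2336 and 2500 CPM. No high value fell among the low ones in either class, and the log2 fold changes were 1.998 ± 0.56 and 2.06 ± 0.69 (SE; adjusted p = 0.00607 and 0.0140, edgeR quasi-likelihood test). Neat1, the scaffold of paraspeckles, had 344, 624, 657 and 253 CPM in high T cells and 104, 38.9, 20.6 and 21.03 CPM in low ones. Xist, which coats the inactive X chromosome, had 1273, 3161, 3460 and 2286 CPM against 440, 323, 272 and 272 CPM. Pvt1, transcribed from the Myc neighbourhood, was higher in both classes as well, by 1.97 ± 0.32 and 2.38 ± 0.57 (SE), and Tug1 passed in T cells only (0.88). Gm42418, AY036118 and Snhg12 did not pass in either class with scaling. Of all genes annotated as long intergenic noncoding RNAs, 19 of 47 were higher and 11 lower in T cells (median 0.60). In B cells 7 of 40 were higher and 4 lower (median -0.11). The shares of all genes that were lower were 29.3% in T and 20.1% in B cells.

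Among genes of nuclear speckles and splicing, 7 of 25 were higher and 3 lower in T cells, and 4 were higher and 1 lower in B cells, where of all genes 27.2% and 8.95% were higher in T and B cells. Without scaling 18 and 17 were higher and none lower, beside 50% and 26.3% of all genes that were then higher. Clk1 and Clk4, kinases of splicing factors that keep part of their transcripts in the nucleus, rose in both classes, by 1.47 ± 0.27 and 1.20 ± 0.29 (SE) in T and by 0.97 ± 0.34 and 1.11 ± 0.39 in B cells. Clk1 had 499, 615, 542 and 366 CPM in high T cells against 242, 82.7, 85.8 and 72.0 CPM in low ones. Son, a scaffold protein of speckles, rose in T cells (1.10 ± 0.29) and stood at 0.85 ± 0.35 in B cells, which did not pass. Luc7l2 and Pnisr, splicing-associated proteins, passed upward in both classes, Ddx17 and Prpf4b in T cells. Srsf3 was lower in both (-1.16 in T and -1.12 in B cells) and Srsf2 and Srsf7 in T cells (-0.96 and -0.75), but without scaling these stood at -0.30, -0.16, -0.10 and 0.10. The abundant splicing gene Ddx5 did not pass in either class.

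**Figure D4:**
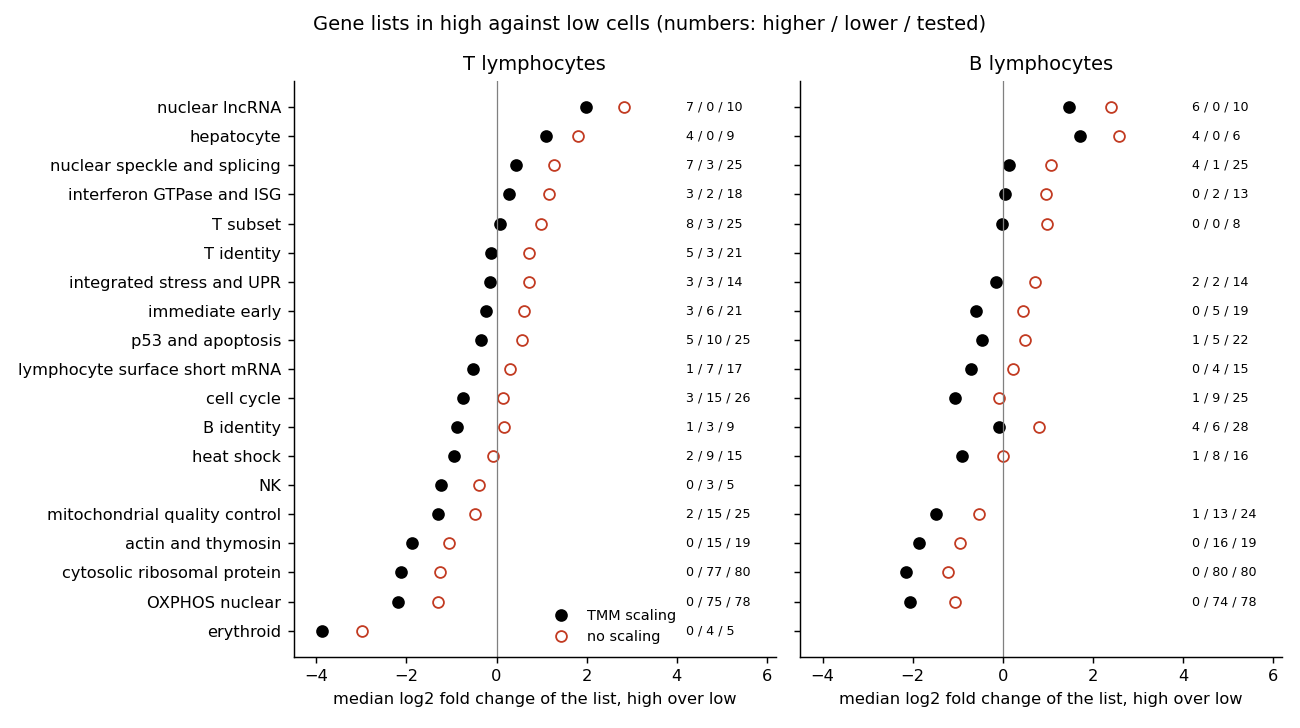
Median log2 fold change of high against low cells for each gene list with at least 5 members tested (horizontal axis), T and B cells apart, with TMM scaling (filled) and without scaling (open), the genes of the rule, Kcnq1ot1 and Gm26917 included in their lists, and the counts called higher, lower and tested beside each list. Ribosomal protein, oxidative phosphorylation and actin genes lie lowest and nuclear long noncoding RNAs highest among the lists of intracellular function, under both scalings.

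Transcript length, a property the rule did not use, went with direction. All genes tested with an entry in GENCODE were divided into quintiles by the summed length of their exons. In T cells the median log2 fold change was -1.48 in the shortest quintile (median 1743 nucleotides), then -0.52, 0.08 and 0.48, and 1.01 in the longest (median 10266 nucleotides). Of the shortest quintile 3.06% of genes were higher and 68.8% lower, and of the longest 64.5% were higher and 4.26% lower. B cells gave the same order, from -1.55 to 0.81. Leaving out the ribosomal protein and oxidative phosphorylation lists changed the ends little, to -1.38 and 1.01 in T and to -1.44 and 0.82 in B cells. The order was also kept without scaling, at equal depth and between cells of 500 to 3000 non-mitochondrial UMIs. Across genes, which are not independent replicates, Spearman's correlation of the fold change with exon length was 0.64 over 7989 genes in T and 0.61 over 7031 genes in B cells, and with the mean level it was -0.33 and -0.36.

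The relation was present in each library but differed in size. From the shortest to the longest quintile the median log2 ratio of high to low CPM went from -0.39 to 0.70 in Naïve T cells, from -0.81 to 2.11 in ConA+Veh, from -0.71 to 2.16 in ConA+TCDD and from -0.51 to 1.58 in ConA+FICZ. Genes of the longest quintile gave 15.3, 26.6, 25.9 and 17.6% of the UMIs of high T cells and 8.56, 6.64, 6.54 and 6.46% of those of low ones. In T cells with a ribosomal share of 15% or more the range over the quintiles was narrower, from -0.82 to 0.41, and in those under 15% it was wider, from -2.22 to 0.90.

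**Figure D5:**
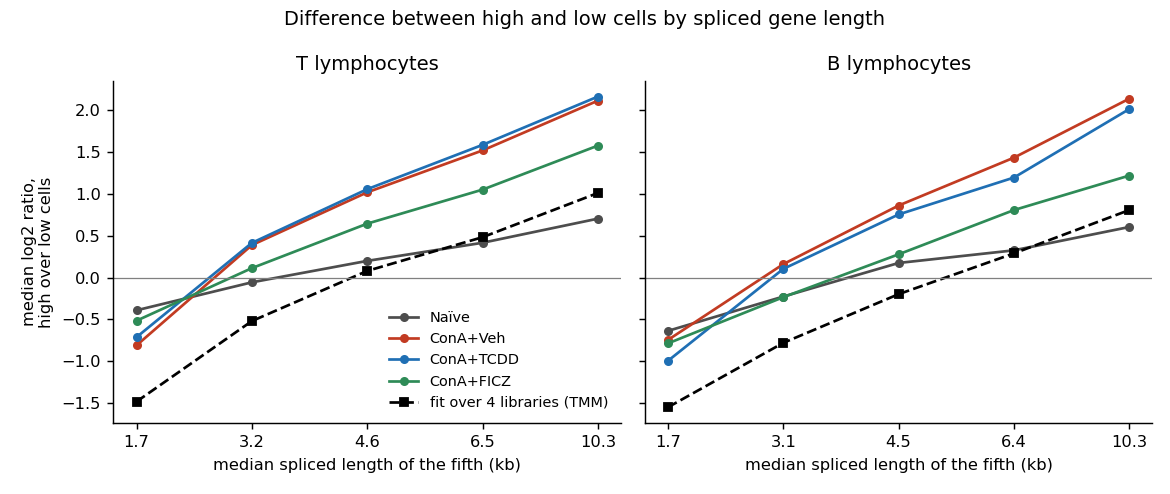
Median log2 fold change of high against low cells (vertical axis) over quintiles of genes ordered by exon length (horizontal axis, median length of the quintile in kilobases), for T and B cells. The medians climb in each step from the shortest to the longest quintile, from -1.48 to 1.01 in T cells.

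In T cells most of the single genes that rose most had longer summed exons than most of those that fell most, but not all lay at the ends of this order. Besides Kcnq1ot1, Gm26917 and Neat1, the T cell genes that rose most were Tspoap1, Lncpint, Tmem87a, Aspm, Pgap1, Gm43661, Gm20696, Kif13b and Gm30373, with log2 fold changes from 3.47 to 2.88 and, save Gm43661 with 687 nucleotides, exon lengths from 4075 (Gm20696) to 16611 nucleotides (Pgap1). Lncpint, a p53-linked long noncoding RNA, had 224, 140, 178 and 99.7 CPM in high T cells and 33.9, 6.52, 5.38 and 6.11 CPM in low ones. Aspm, a large spindle protein of dividing cells, had 17.2, 349, 227 and 173 CPM against 1.67, 18.4, 10.3 and 12.4 CPM, where the Naïve value rested on a single UMI. Tmem87a, a membrane protein of the Golgi, had 34.4, 230.5, 231 and 126 CPM against 12.2, 8.23, 11.2 and 8.65 CPM. Lncpint, Tmem87a and Kif13b, a kinesin motor, were also among the 12 largest rises of B cells, which also included Zkscan5, Cers6, Tspyl4, Ankrd52, Cacna1e, Itgb3, Galnt6 and Erlin2 (log2 fold changes from 3.10 to 2.63). Each of these B cell genes rested on 6 to 35 UMIs in high cells. Their exon lengths went from 3871 (Galnt6) to 25228 nucleotides (Cacna1e).

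Most of the genes that fell most had short messages, such as Ddt with 773 and Trappc1 with 1112 nucleotides, but Plin3 and Nudt18 had 3786 and 4440. Plin3, a lipid droplet coat protein, was seen with 0 UMIs in high T cells and 347 in low ones, so that it was at least 4.41-fold lower, and Nudt18, a nucleotide hydrolase, with 0 against 253 UMIs was at least 3.22-fold lower, both against a floor of 3 UMIs over the group. Nme4, Hspb11, Ngrn, Ddt, Qdpr and Trappc1 followed with log2 fold changes from -4.38 to -3.70. Ddt, a relative of the cytokine MIF, had 34.4, 10.6, 13.3 and 19.9 CPM in high T cells and 60.0, 114, 134 and 125 CPM in low ones. In high B cells Ddt had 0 UMIs against 1120 in low cells, at least 5.41-fold lower, and Pcbd2, Naxe, 9130401M01Rik and Pyurf were likewise at 0. The other genes of this rank were immunoglobulin kappa variable segments, Igkv12-46, Igkv2-137, Igkv8-24, Igkv3-10, Igkv13-85, Igkv2-109 and Igkv4-91. Of the UMIs of Igkv2-137 in low B cells 75.4% came from 1 cell, so that its absence from 157 high cells says little. S100a8, Hbb-bs, Hbb-bt and Hba-a2, which were also among the 12 largest falls in T cells, are products of neutrophils and red cells and are taken up below.

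Proliferation genes were split. In T cells 15 of 26 cell cycle genes were lower and 3 higher, against 29.3% and 27.2% of all genes, with a median of -0.73. Without scaling the median was 0.13, and 5 were lower and 9 higher, beside 11.6% and 50% of all genes. Those that rose were Mki67, a large protein of mitotic chromosomes (2.35 ± 0.30, SE), and the centromere proteins Cenpf (0.98 ± 0.26) and Cenpe (0.82 ± 0.25). Mki67 had 275, 2275, 1537 and 1083 CPM in high T cells and 38.3, 205, 166 and 126 CPM in low ones, without overlap. H2afz, a histone variant, and Tubb5, a tubulin, fell by 2.42 and 1.58 on the log2 scale. In B cells Mki67 was the only one of 25 that rose (1.74 ± 0.39), although no UMI of it was seen in high cells of Naïve, and 9 fell. Of all genes 8.95% were higher and 20.1% lower in B cells. The B cell median of the list was -1.06 with scaling and -0.08 without. Without scaling 2 were lower and 4 higher in B cells, beside 5.55% and 26.3% of all genes.

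Stress genes went in both directions. Of the integrated stress and unfolded protein response list, 3 of 14 were higher and 3 lower in T cells, and 2 of 14 were higher and 2 lower in B cells. Of all genes 27.2% were higher and 29.3% lower in T, and 8.95% and 20.1% in B cells. Without scaling 8 were higher and 1 lower in T and 5 higher and none lower in B cells. The shares of all genes were then 50% higher and 11.6% lower in T, and 26.3% and 5.55% in B cells. Hspa5, the chaperone BiP of the endoplasmic reticulum, had 705, 6544, 5077 and 2299 CPM in high T cells and 429, 536, 498 and 499 CPM in low ones (log2 fold change 1.71 ± 0.45, SE). High B cells had 301, 5361, 4939 and 1691 CPM against 370, 451, 444 and 426 CPM (1.44 ± 0.45), so that Naïve B cells went the other way and the ranges overlapped. Hspa5 was high mainly in the cells poor in ribosomal mRNA. T cells with a ribosomal share under 15% had 1595, 7337, 6155 and 5492 CPM, and those at 15% or more had 491, 1140, 981 and 508 CPM. Pdia4, a disulfide isomerase that works beside Hspa5, rose in T (1.69 ± 0.27) and B cells (1.01 ± 0.35). In B cells at a ribosomal share of 15% or more, only Naïve and ConA+FICZ held enough high cells for the fit. There the fold changes of Hspa5 and Pdia4 were below 0, at -0.91 and -0.95. Hspa5 stood at 262, 1304, 1029 and 439 CPM in these B cells, with 4 cells in ConA+Veh and 2 in ConA+TCDD. Only the Naïve value lay below that of the low B cells of its library. Hspa5 and Pdia4 encode proteins of the endoplasmic reticulum, as does Sdf2l1 of the same list, which fell. The third that rose in T cells was Slc3a2, an amino acid transporter subunit (0.70, and -0.16 in the cells at 15% or more), and Ddit4 fell (-1.46). Cebpb and Sdf2l1 of the same list fell in both classes, by 1.95 and 1.45 in T and by 2.20 and 2.04 in B cells, and Ddit3 and Atf4, transcription factors of the stress response, did not pass in either.

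Of the heat shock list 9 of 15 were lower and 2 higher in T cells (median -0.94), and 8 of 16 were lower and 1 higher in B cells (median -0.92), against 29.3% and 27.2% of all genes in T and 20.1% and 8.95% in B cells. Without scaling 2 were lower and 3 higher in T cells (median -0.08), and 1 lower and 2 higher in B cells (median 0.0042). The share of all genes higher was then 50% in T and 26.3% in B cells, and that lower 11.6% and 5.55%. The 2 that rose in T cells, Hspa5 and Hsp90b1, are the members of the endoplasmic reticulum, and the cytosolic Hspa8 and Hsp90ab1 fell by 1.51 and 1.53 in T cells. In the p53 and apoptosis list, 10 of 25 were lower and 5 higher in T cells, and 5 of 22 were lower and 1 higher in B cells, against 29.3% and 27.2% of all genes in T and 20.1% and 8.95% in B cells. Without scaling 5 were lower and 10 higher in T and 1 lower and 5 higher in B cells. Of all genes 11.6% were then lower and 50% higher in T, and 5.55% and 26.3% in B cells. Cycs, cytochrome c, fell by 3.21 in T and 2.24 in B cells and the pore former Bax by 2.09 and 1.58, whereas Apaf1, the scaffold of the apoptosome (1.5 ± 0.35, SE), and Bcl2l11, the death protein Bim (1.34 ± 0.25), rose in T cells, as did Mdm2, Bcl2 and Xiap (0.76, 0.56 and 0.92), and Xiap rose in B cells (1.02), where Trp53, Bak1 and Bcl2a1d fell. The median of this list was -0.33 in T and -0.46 in B cells with scaling. Without scaling it was 0.57 and 0.49, beside 0.90 and 0.71 over all genes. Bcl2 stood at -0.18 between cells of 500 to 3000 non-mitochondrial UMIs. Immediate early genes, which tissue dissociation can induce, were lower in 6 and higher in 3 of 21 in T cells and lower in 5 of 19 in B cells with none higher, and Fosb, Nr4a2 and Nr4a3 were those higher (2.01, 1.56 and 1.23). Of all genes 29.3% were lower in T and 20.1% in B cells. Without scaling the medians of -0.23 and -0.59 became 0.61 and 0.44, beside 0.90 and 0.71 over all genes. None was then lower, and 8 were higher in T and 3 in B cells, beside 50% and 26.3% of all genes. Of the interferon list 3 of 18 were higher (Gbp4, Gbp5 and Irf1) and 2 lower in T cells, and 2 of 13 were lower in B cells, no more than the 27.2% and 29.3% of all genes in T and 20.1% in B cells. Without scaling 9 were higher and 1 lower in T and 4 higher and none lower in B cells. Of all genes 50% and 26.3% were then higher. Gbp2 fell in both, by 0.99 and 1.22, but stood at -0.08 and -0.24 without scaling. Isg15, a short interferon-induced message, fell in both (by 2.37 and 2.19).

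Only 4 of the 11 genes of the aryl hydrocarbon receptor list had enough UMIs to be tested, and the classic targets Cyp1a1, Cyp1a2, Cyp1b1 and Ahrr were not among them. In T cells Ahr, the receptor, Arnt, its partner, and the target Tiparp were higher in high cells, by 1.05 ± 0.27, 1.97 ± 0.31 and 1.08 ± 0.30 (SE), and Nfe2l2 was lower (-1.03 ± 0.30, and -0.13 without scaling). Ahr had 17.2, 101.5, 142 and 66.5 CPM in high and 17.2, 25, 26.8 and 21.3 CPM in low T cells, so that the Naïve library showed no gap, and between cells of 500 to 3000 non-mitochondrial UMIs its fold change was -0.32. None of the 4 passed in B cells.

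The lymphocyte identity of the high cells was checked with genes the rule did not use. After thinning, Trac, the constant segment of the T cell receptor alpha chain, was seen in 12.5, 18.6, 13.1 and 20.9% of high T cells and in 18.9, 9.69, 10.6 and 12.2% of low T cells, but in 0 to 3.33% of high B cells. Cd74, the invariant chain of class II molecules, was seen in 93.9 to 100% of high B cells and in 2.5 to 12.1% of high T cells. Ebf1, a B cell transcription factor, was seen in 76, 50, 56.7 and 51.5% of high B cells, above the 61.7, 23.6, 23.6 and 28.1% of low B cells and the 1.01 to 2.5% of high T cells. Both lineage labels thus held in the high cells.

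Among 18 T cell identity genes that the rule did not use, 5 were higher and 2 lower, against 27.2% and 29.3% of all genes. Without scaling 11 were higher and none lower, beside 50% and 11.6% of all genes. Those that rose included Themis (1.48 ± 0.32, SE), Cd5 (1.01 ± 0.26), Cd28 (0.99 ± 0.31, but -0.17 in cells at 15% ribosomal share or more) and Bcl11b (0.63 ± 0.23). In contrast, the adaptor Lat and the kinase Zap70 fell, by 0.95 and 0.91 on the log2 scale, but stood at -0.11 and -0.06 without scaling. Neither of the 2 T cell identity genes tested in B cells passed. The median of the 18, -0.01, moved to 0.83 without scaling, much as that of all genes did. Of the subset genes 8 of 25 were higher and 3 lower (27.2% and 29.3% of all genes), and 16 and 1 without scaling (50% and 11.6% of all genes), so that the higher share was near that of all genes. Cd4 (1.34 ± 0.30), Il7r (1.15 ± 0.27), Zbtb16, the transcription factor of NKT cells (1.65 ± 0.37), Tox (1.17 ± 0.30) and Lag3 (0.999 ± 0.26), Ctla4, Icos and Il4 were those higher, and the chemokines Ccl5 and Xcl1 and the granule protein Nkg7 fell by 2.15, 1.27 and 1.02 (-1.33, -0.40 and -0.18 without scaling). None of 8 passed in B cells. Cd8a (0.28 ± 0.28) and Cd8b1 (0.03 ± 0.36) did not pass. Of 17 genes for surface proteins with mostly short messages, 7 were lower and 1, Cd69, was higher in T cells, and 4 of 15 were lower in B cells (medians -0.53 and -0.71), where 29.3% and 27.2% of all T cell genes and 20.1% of all B cell genes were so called. Without scaling 1 was lower and 6 higher in T cells, and none lower and 2 higher in B cells (medians 0.30 and 0.22). Of all genes 50% and 26.3% were then higher. Cd52 fell in both, with log2 fold changes of -1.78 and -1.498, while H2-K1 and H2-D1 did not pass in either.

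Of 25 B cell identity genes that the rule did not use, 4 were higher and 6 lower in B cells, against 8.95% and 20.1% of all genes. Without scaling 11 were higher and 2 lower, beside 26.3% and 5.55% of all genes. The inhibitory receptor Cd22 had 842, 1066, 639 and 948 CPM in high and 278, 148.5, 120 and 209.5 CPM in low B cells (1.37 ± 0.34, SE), and Cr2 (1.58 ± 0.46), Mreg (2.09 ± 0.60) and Bank1 (0.86 ± 0.35) rose with it. Mzb1, Cd24a, Vpreb3, Ly6d, Tnfrsf13c and Iglc2 fell, by 1.39 to 2.28 on the log2 scale. Cd74, Ighm, Ighd, Ebf1 and Pax5 did not pass the test. In T cells 1 of 9 of these B cell genes was higher (Igkc) and 3 were lower (H2-Eb1, Cd24a and Cd200), near the 29.3% of all genes that were lower. Without scaling 2 were higher and none lower in T cells, beside 50% and 11.6% of all genes.

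Markers of other cells of the preparation were counted in the same sums. For comparison, 27.2% of all genes were higher and 29.3% lower in T cells, and 8.95% and 20.1% in B cells. Without scaling these shares were 50% and 11.6% in T and 26.3% and 5.55% in B cells. Neutrophil genes were lower in 3 of 3 tested in T and 2 of 2 in B cells. Their summed level over 10 genes was 34.4, 65.5, 75.5 and 186 CPM in high T cells and 66.1, 1210, 296 and 1395 CPM in low ones, led by S100a9 or S100a8 and, in ConA+FICZ high cells, by Lcn2. Erythroid genes, led by Hbb-bs, were lower in 4 of 5 tested in T cells, and Hbb-bs was higher in B cells, with T cell sums over 9 genes of 68.8, 80.3, 169 and 26.6 CPM against 1131, 943, 1001 and 30.7 CPM. Hepatocyte genes were higher in 4 of 9 in T (Alb, Apoc1, Serpina3k and Fgb) and 4 of 6 in B cells (Apoa2, Apoc3, Ttr and Fgb), and none was lower. Without scaling 7 and 5 of these hepatocyte genes were higher and none lower. Over 15 genes they summed to 103, 144, 271 and 1123 CPM in high T cells against 92.8, 48.4, 21.2 and 395 CPM in low ones, and to 331, 578, 0 and 1896 CPM in high B cells against 123, 107, 4.98 and 430 CPM. Alb, albumin, had 0, 33.8, 151 and 113 CPM in high T cells and 20, 5.03, 4.0 and 57.6 CPM in low ones, so that ConA+FICZ carried the most hepatocyte RNA in low cells and Naïve high cells carried none of this gene. Of 10 natural killer genes 3 of 5 tested were lower and none higher in T cells, and 2 were lower and 1 higher without scaling. Their sum was 464, 269, 129 and 253 CPM in high and 424, 672, 296 and 291 CPM in low T cells, led by Fcer1g and Tyrobp. Of the macrophage list 2 of 3 were lower in T cells, Lyz2 and C1qb (-1.19, but 1.26 in cells at 15% ribosomal share or more), and 1 without scaling. Its sums were 68.8, 283, 133 and 146 CPM in high and 79.4, 444, 74.3 and 170 CPM in low T cells, and 662, 1673, 1228 and 615 CPM in high and 860, 821, 711 and 829 CPM in low B cells, where they were led by Ctss and Ly86, which B cells also express. Of the endothelial list only Pecam1 rose, in T (1.63 ± 0.29, SE) and B cells (1.12 ± 0.41), and of the plasmacytoid list Ccr9 and Runx2 rose and Bst2 and Irf8 fell in T cells, while Ly6d, Irf8 (-0.94, and 0.01 without scaling) and Bst2 fell in B cells, but without scaling none of the list was lower in either class. No stellate or fibroblast gene had enough UMIs to be tested, and of their 10 genes high cells held at most 13.3 CPM in sum. The part of these other cells' RNA in the results was not tested, apart from the fits without cells that carried 2 or more such UMIs.

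Few genes passed a test of whether high and low cells compared differently in T and B cells. Of 9132 genes tested for a difference of the fold changes between the classes 4 passed (0.0438%), with 400 at an unadjusted p below 0.05 in the edgeR fit. Of the 4, 3 were genes of the B lineage, which T cells hardly express. These 3 did not enter the T cell fit and decide nothing about T cells. Fewer high B cells were available, and how large a difference this test could find was not measured, since the simulated data covered the T and B fits only.

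Finally, the high cells of different libraries were set side by side. With 1 library per condition there is no replicate check, and a gene is called different when its CPM ratio was at least 2-fold with an exact 95% counting interval that excluded no change. Between ConA+Veh and Naïve, high T cells differed in 672 genes with higher (12.9%) and 354 with lower levels (6.81%) in ConA+Veh out of 5201. Between ConA+TCDD and ConA+Veh 98 (1.61%) were higher and 119 (1.95%) lower of 6104, and between ConA+FICZ and ConA+Veh 341 (6.03%) were higher and 789 (14.0%) lower of 5655. Low T cells gave 855 (8.27%) and 1813 (17.5%) of 10335, 90 (0.848%) and 479 (4.52%) of 10608, and 150 (1.4%) and 349 (3.26%) of 10704 in the same comparisons. High B cells gave 200 higher (22.2%) and 141 lower (15.6%) of 902 between ConA+Veh and Naïve, 30 (2.78%) and 45 (4.17%) of 1079 between ConA+TCDD and ConA+Veh, and 106 (11.3%) and 184 (19.6%) of 938 between ConA+FICZ and ConA+Veh. Low B cells gave 705 (7.55%) and 1988 (21.3%) of 9337, 102 (1.15%) and 225 (2.53%) of 8880, and 242 (2.54%) and 133 (1.4%) of 9520. All comparisons with ConA+Veh share that library. These ratios are unscaled, and the median log2 ratio of all genes measured in high cells was 0.45, -0.01 and -0.39 in T and 0.33, 0.01 and -0.43 in B cells for the same comparisons, so that the balance of higher and lower genes includes this shift.

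The ribosomal genes stood out in these comparisons. In high T cells 70 of 79 measured were lower in ConA+Veh than in Naïve, against 6.81% of all genes. The summed log2 ratio of the ribosomal genes was -1.503 (-1.53 to -1.48), whereas it was 0.01 in low T cells. In high T cells 63 of 80 ribosomal genes were higher in ConA+FICZ than in ConA+Veh, against 6.03% of all genes. Their summed log2 ratio was 1.43 (1.41 to 1.45), against 0.02 in low T cells. None of 80 was called between ConA+TCDD and ConA+Veh, at a summed log2 ratio of 0.32. High B cells gave -1.38, 1.56 and 0.06 for the same comparisons. The integrated stress and unfolded protein response list, of whose UMIs in ConA+Veh high T cells 3095 of 4859 were of Hspa5, had summed log2 ratios of 1.88 (1.66 to 2.12), -1.31 and -0.28 in high T cells and of -0.07 and -0.05 for the first 2 in low T cells. Without Hspa5 the first 2 were 0.84 (0.58 to 1.12) and -1.008 (-1.20 to -0.83), beside medians of 0.45 and -0.39 over all genes. Of 13 members measured, 4 were higher and 2 lower in ConA+Veh than in Naïve, against 12.9% and 6.81% of all genes. None was higher and 5 were lower in ConA+FICZ than in ConA+Veh, against 6.03% and 14.0%. The high T cells also differed in mix, with 13 of 40, 184 of 204, 90 of 102 and 27 of 69 under 15% ribosomal share. Within that range Hspa5 stood at 1595, 7337, 6155 and 5492 CPM. The part of this mix in the differences between libraries was not tested.

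Among single genes, Pdia6, a disulfide isomerase of the endoplasmic reticulum, showed the largest rise between Naïve and ConA+Veh high T cells, with 579 UMIs against 1 and a log2 ratio of 6.15 (3.67 to 11.5), against 0.76 (0.56 to 0.96) in low T cells. Manf, Ssr3 and Tm9sf2, also genes of the secretory pathway, and Aspm and Hells followed, each likewise with a single UMI in Naïve. Ccl5 was lower in ConA+Veh, at a log2 ratio of -3.97 (-4.43 to -3.52) in high and -2.001 in low T cells, and S100a4 (-4.83, and -3.57 in low cells) and Klf2 (-3.43, and -2.82 in low cells) were lower as well. Between ConA+FICZ and ConA+Veh the largest rises were mainly genes of the hepatic acute phase response, Fga, Saa1, Orm1, Saa2, Lcn2 and Serpina3k. Saa1 stood at 339 CPM against 10.6 CPM in high T cells, a log2 ratio of 5.003 (3.69 to 6.69), and at a log2 ratio of 4.05 in low T cells, so that low cells differed in the same direction. Between ConA+TCDD and ConA+Veh few genes differed. The largest rises were Vcan (21 against 0 UMIs), Il1r2 (19 against 4) and Tgfbi (15 against 5), and the largest fall was Ctsg (1 against 46). These are few UMIs, and how many cells of each library held them was not counted. In low T cells the log2 ratios of Vcan, Il1r2 and Tgfbi were 0.53, -1.03 and -4.16, and that of Ctsg was -0.23. Ifng, interferon gamma, had 36 against 13 UMIs, with a log2 ratio of 2.54 (1.59 to 3.58) in high and 0.49 in low T cells. In high B cells Hspa5 was 4.16 (3.26 to 5.23) higher on the log2 scale in ConA+Veh than in Naïve, against 0.29 in low B cells, and the immediate early genes Junb, Nr4a1 and Fosb and the growth regulator Myc were lower (log2 ratios -4.59, -3.96, -3.34 and -4.44). In low B cells these genes were lower as well, at -2.92, -2.34, -2.69 and -1.68.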

How the data were processed

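UMI counts per gene and cell were deposited by the authors for each library, with no filter on mitochondrial share stated. Cell Ranger 3.0.2 and mm10 are named in the submitters' notes and methods. From these counts, cells were classed by the rule, and T cells (no more than 2 UMIs of the B genes) and B cells (no UMI of the Cd3 genes) were fitted apart; cells meeting both criteria were counted and left out, and no doublet caller was run. UMIs were summed per library and class without mitochondrial genes, and tested with edgeR 4.0.16 (TMM, filterByExpr, quasi-likelihood, Benjamini-Hochberg) in R 4.3.3, after a test on simulated data. DESeq2 1.42.0 was an alternative. Values of 1 library carry exact 95% intervals. Genes were placed and measured with GENCODE M21.

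The cells, their 2 markers and all gene lists were chosen with earlier results of these data known. Named were the 12 largest rises and falls of each fit that passed, went one way in each library and had at least 20 UMIs in high or low cells, the 6 largest library ratios each way, and the 2 to 4 most abundant genes of each list. Other list members, the division at 15% ribosomal share and the window of 500 to 3000 UMIs were chosen after values were seen. Some genes that met these rules are not reported here.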

Additional observations from a re-analysis of the deposited data

Results flagged for a closer look

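Tested as a difference of the high against low fold changes between T and B cells, 4 genes passed in the edgeR fit, and of these only Hbb-bs also entered the separate T cell fit. Igkv1-135 differed by 8.19 on the log2 scale (T minus B). It fell by 3.89 in B cells, where 64.4% of the UMIs of low cells came from 1 cell, and had 10 UMIs in high and 4 in low T cells. Igkv9-124 differed by 8.02, with 6 UMIs in 2 high T cells and 1 UMI in low ones, and with 3 UMIs in high and 649 in low B cells. Tnfrsf13c, the receptor of the B cell survival factor BAFF, differed by 3.6, falling by 1.39 in B cells, with 11 UMIs in 8 high T cells and 31 in low ones. These 3 genes were too rare in T cells to be fitted there, so that their differences decide nothing about T cells. Hbb-bs, a beta globin gene, differed by -6.13, with -4.51 in T cells, where 229 low cells held 11831 UMIs, and 1.74 in B cells, whose low cells held 144 UMIs. With 1 library per condition, no library could be tested for standing apart from others of its group.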

How the results depend on the processing

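For 110 genes in T and 108 in B cells, values under the alternatives mostly kept their direction and side of the threshold. In T cells 1706 values were the same, 89 gained and 157 lost the call, and 7 reversed. In B cells these counts were 1578, 48, 258 and 8. The counts of genes called depended on scaling, depth and library. In T cells 2172 genes were higher and 2344 lower, against 4002 and 925 without scaling, 698 and 822 of 2924 tested after thinning to 500 UMIs, 597 and 661 of 3021 between cells of 500 to 3000 UMIs, and 471 and 1120 with high cells of 15% ribosomal share or more. In B cells 630 were higher and 1413 lower, against 1848 and 391 without scaling, 276 and 269 after thinning, 286 and 246 in the depth window, and 4 and 259 at 15% ribosomal share or more (2 libraries). Without cells carrying 2 or more UMIs of other cell types they were 52 and 22 of 568 tested. That step removes most B cells, and why they carry such UMIs was not tested. Fewer genes tested or fewer cells account for part of these differences by construction. B cells had 289 higher genes with no filter, 263 with high cells up to 20%, 378 under the stricter lymphocyte rule, and 924 lower by DESeq2. Leaving out 1 library gave 1247 (without ConA+Veh) to 2450 genes higher in T cells, with 1284 without ConA+TCDD, and 1662 to 2829 lower. In B cells it gave 112 (without ConA+Veh) to 907 higher, with 126 without ConA+TCDD, and 735 to 1539 lower, with 800 without ConA+TCDD. The T minus B difference had 2 to 6 genes. Without the library as a replicate block 1723 and 1993 genes were higher and lower in T and 458 and 1070 in B cells. The ConA+TCDD against ConA+Veh count of 217 genes became 419 at 1.5-fold.

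The share of high cells was 39.1, 21.1, 18.5 and 23.6% with a bound of 5%, 1.35, 10.4, 9.52 and 3.24% with 15%, 13.5% in ConA+Veh and 5.72% in ConA+FICZ under the stricter rule, and 3.19, 12.1 and 9.64% in the first 3 libraries among cells of at least 1000 UMIs. Shallow cells meet the lymphocyte criteria less easily, which limits all shares.

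Among the 110 T cell and 108 B cell genes followed, some log2 fold changes reversed. Between cells of 500 to 3000 UMIs these were Bcl2 (-0.18), Hspd1 (1.17) and Ahr (-0.32) in T cells. At 15% ribosomal share or more they were Slc3a2 (-0.16), Cd28 (-0.17), Klrb1c (0.016) and C1qb (1.26) in T cells. At that share Hspa5 (-0.91) and Pdia4 (-0.95) reversed in B cells, in a fit that held Naïve and ConA+FICZ only. Genes outside these sets were not followed in this way, and some reversed as well, such as Srsf7 in T cells without scaling. In B cells Hspd1 stood at 0.0053 without scaling, 0.28 after thinning, 0.40 without cells carrying other types' UMIs and 0.55 in the depth window, and Irf8 at 0.010 without scaling and 0.40 without those cells. The cause was not tested. The depth window and the ribosomal ranges were chosen after seeing the data. On simulated data, 86.5% of 4-fold and 21.9% of 2-fold changes were called in T and 44.3% and 8.6% in B cells, so that small changes could be missed. The simulation used a fixed spread and few changed genes, whereas many genes moved here, so the rates may differ in the real fits.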

Other observations

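Immunoglobulin variable segments were counted as a group in B cells. Of 91 tested, 47 were lower and 7 higher in high cells, against 20.1% and 8.95% of all genes, with a median log2 fold change of -1.48. Without scaling 24 were lower and 14 higher, beside 5.55% and 26.3% of all genes, with a median of -0.48. Single segments can sit in few cells. For Igkv1-135, 64.4% of the UMIs of low B cells came from 1 cell, and Igkv9-124 was seen in 24 low B cells. How far such cells carry the count was not tested, so it says little about the segments as a group.

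High cells outside the lymphocyte rule shared the low ribosomal share in part. It was under 15% in 66.7, 87.7, 87.9 and 50% of the non-lymphocytes with a mitochondrial share above 10% and up to 40% in the 4 libraries, in the order used above, against 45.3, 37.8, 30.5 and 56.9% of the non-lymphocytes at 10% or less, so that in ConA+FICZ the first share was the smaller.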
